A study of Homo sapiens with 9 samples.

Results

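The hypoxia-inducible factor (HIF) pathway was described here through 36 genes, taken by symbol from a count table of 64253 genes. They are 8 factors and regulators (HIF1A, EPAS1, ARNT, HIF1AN, VHL and EGLN1 to EGLN3) and 28 target genes outside the glycolytic enzymes. The RNA came from EPC2, a line labelled as normal squamous cells of the human esophagus, sequenced in 9 libraries. Of these, 3 came from cells given a FOXF1 plasmid with Lipofectamine 2000, 3 from cells given an empty vector with the same reagent, and 3 from untreated cells. FOXF1 encodes a forkhead transcription factor. All groups share the line and its keratinocyte medium, and the labels name no exposure to low oxygen. All results are from 1 line, each library averages its cells, and the plasmid's promoter and dose, the share of cells that took it up and the time of harvest are not stated in these sources. All 36 genes passed the filter on low counts and were tested.

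HIF is a transcription factor made of an oxygen-regulated alpha subunit, encoded by HIF1A or EPAS1, and the constant partner ARNT. In oxygen, prolyl hydroxylases of the EGLN family mark the alpha subunit, the VHL ubiquitin ligase binds it and the proteasome removes it, while the asparaginyl hydroxylase encoded by HIF1AN blocks its contact with coactivators. When the hydroxylases slow, the protein builds up and binds a short DNA element near genes for pH control, vessel growth, collagen maturation, mitophagy and sugar use. Because this control acts on the protein, RNA of the alpha subunits need not follow HIF activity. EGLN1, EGLN3 and many of the targets are textbook HIF-induced genes.

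Library totals ran from 34390666 to 39973289 counts, so that a gene without a read could have a level of up to 0.0751 to 0.0872 CPM (counts per 1000000 counts of the library), taking 3 counts as the limit. FOXF1 had 367, 184 and 141 reads with the plasmid, 0, 0 and 6 with the empty vector, and 1, 0 and 0 in untreated cells. Most defining squamous markers were absent or near 0, against the label of the line. TP63, the basal regulator of squamous epithelium, had no read in any library, and 7 of 10 squamous markers stayed below 1 CPM throughout, whereas SFN averaged 106 CPM and S100A2 166 CPM. The simple-epithelial keratin KRT18 averaged 1287 CPM and the mesenchymal filament VIM 801 CPM over the 9 libraries. Other markers of these lists were low. EPCAM and CDH1 of simple epithelium averaged 4.53 and 9.16 CPM, and 5 of 9 mesenchymal markers stayed below 1 CPM throughout. PTPRC of leukocytes had no read, and all 4 endothelial markers stayed below 1 CPM. The mitochondrially encoded share of reads was 13.7% to 14.7% with the FOXF1 plasmid, 10.3% to 11.7% with the empty vector and 18.6% to 22.4% in untreated libraries. Levels below are CPM on library sizes scaled by trimmed means (TMM), given for replicates 1, 2 and 3, with means ± SD over n = 3. Differences are log2 fold changes ± standard error (SE), and calls needed an adjusted p below 0.05, with adjustment over all 16366 genes tested.

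The DNA element that HIF binds has the core ACGTG or GCGTG, and 4 promoters are shown because they hold different numbers of it beside different responses. Windows of 300 bases, 250 before and 50 after the annotated start, came from RefSeq (GRCh38.p14), which supplied 29 of the 36 genes. Capitals mark each core on either strand, so that CACGT and CACGC are cores of the opposite strand. The windows are chr9:35673678-35673977 (plus strand) for CA9, chr1:231422238-231422537 (minus strand) for EGLN1, chr14:33951025-33951324 (minus strand) for EGLN3 and chr3:122383932-122384231 (plus strand) for FAM162A.
CA9: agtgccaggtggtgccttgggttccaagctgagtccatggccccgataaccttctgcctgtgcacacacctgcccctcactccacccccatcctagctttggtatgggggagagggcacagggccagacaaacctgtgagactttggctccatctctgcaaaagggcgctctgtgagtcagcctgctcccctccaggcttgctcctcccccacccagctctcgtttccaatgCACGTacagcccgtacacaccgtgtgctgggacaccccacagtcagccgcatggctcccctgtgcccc
EGLN1: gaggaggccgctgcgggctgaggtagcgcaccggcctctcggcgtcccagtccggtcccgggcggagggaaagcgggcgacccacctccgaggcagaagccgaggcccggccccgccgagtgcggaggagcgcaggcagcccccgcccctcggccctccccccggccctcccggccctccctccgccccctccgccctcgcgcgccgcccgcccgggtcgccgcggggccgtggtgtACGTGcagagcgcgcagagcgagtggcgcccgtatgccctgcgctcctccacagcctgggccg
EGLN3: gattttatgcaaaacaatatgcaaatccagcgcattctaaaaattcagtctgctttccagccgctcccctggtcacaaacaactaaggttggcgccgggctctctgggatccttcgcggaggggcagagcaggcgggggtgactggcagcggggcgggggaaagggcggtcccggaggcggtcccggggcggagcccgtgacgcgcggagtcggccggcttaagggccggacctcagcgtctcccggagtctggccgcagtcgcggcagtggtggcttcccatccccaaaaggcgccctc
FAM162A: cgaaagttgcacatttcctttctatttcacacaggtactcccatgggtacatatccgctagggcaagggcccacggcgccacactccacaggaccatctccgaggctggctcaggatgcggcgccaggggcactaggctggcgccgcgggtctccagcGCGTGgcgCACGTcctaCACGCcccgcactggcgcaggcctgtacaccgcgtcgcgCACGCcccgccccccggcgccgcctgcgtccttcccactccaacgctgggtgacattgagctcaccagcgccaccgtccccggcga
CA9 had 1 core, 18 bases before the start, and EGLN1 had 1, 13 bases before it. EGLN3, which rose, had none, and FAM162A, which was not called, had 4, at 92, 84, 75 and 36 bases before the start. A core was present in 22 of the 29 windows (75.9%), against 48.4% of 27305 windows of all genes and 63.2% of 10393 windows of tested genes. It was in 16 of the 21 windows of genes that rose with the empty vector and in 6 of the 8 windows of the others. The E-box CACGTG, which contains ACGTG on both strands, was in 7 of the 29 windows (24.1%), against 7.43% of all windows and 10.2% of those of tested genes. The amino acid response core TGATGNAA, searched on both strands, was in 0 of the 29 windows, against 3.67% of all windows and 1.52% of those of tested genes. These matches describe letters in short windows only.

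The comparison of the empty vector with untreated cells joins the reagent, the vector and any difference in handling, together called transfection here. No group separates these. Most HIF targets rose in this comparison. Of the 36 genes, 27 rose (75%) and 1 fell, against 10.2% and 9.37% of all genes tested in those directions. The targets made up 24 of the rises and none of the falls, with a median log2 fold change of 0.60, against 0.04 for all genes tested. The factors and regulators had a median of 0.08, with 3 rises and 1 fall. With scaling by total counts alone, which called 35% of all genes higher and 2.07% lower, these 8 genes had a median of 0.33, against 0.29 for all genes, with 5 rises and no fall. In 25 of the 36 genes every empty vector library lay above every untreated library, as in 17.4% of all genes tested. A rise of at least 2-fold was called in 6 of the 36 (16.7%), against 0.794% of all genes.

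The alpha subunits did not rise with their targets. EPAS1, the HIF-2 alpha subunit, was at 254, 263 and 237 CPM with the FOXF1 plasmid, 252, 255 and 258 CPM with the empty vector, and 287, 298 and 295 CPM in untreated libraries. Both transfected groups lay below the untreated one without overlap. It fell by 0.22 (SE 0.06, adjusted p = 0.0202) with the FOXF1 plasmid and by 0.20 (SE 0.06, adjusted p = 0.0194) with the empty vector. These calls depend on the scaling, since with total counts alone the values were -0.07 for the FOXF1 plasmid and 0.05 for the empty vector, neither called. The FOXF1 plasmid call did not hold without FOXF1 plasmid replicate 1 (-0.23), FOXF1 plasmid replicate 3 (-0.18) or untreated replicate 2 (-0.22), nor the empty vector call without empty vector replicate 2 (-0.20) or untreated replicate 2 (-0.20).

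HIF1A, the HIF-1 alpha subunit, was at 57.8, 48.4 and 54.1 CPM with the FOXF1 plasmid, 51.3, 62 and 63.5 CPM with the empty vector, and 64.9, 76.5 and 66 CPM in untreated libraries. Every transfected library was below the lowest untreated one, though the highest empty vector library came close to it. With the FOXF1 plasmid it fell by 0.37 (SE 0.08, adjusted p = 0.00422), and with the empty vector its value was -0.23 ± 0.08 (adjusted p = 0.0517), which was called lower under 10 of 19 alternatives. With total counts alone the HIF1A values were -0.22 with the FOXF1 plasmid and 0.02 with the empty vector, neither called. ARNT, the constant partner, had 65.5, 66.7 and 68.2 CPM with the FOXF1 plasmid, 70.4, 64 and 66.9 CPM with the empty vector, and 66.7, 77.6 and 69.7 CPM in untreated libraries. Its groups overlapped, with values of -0.10 ± 0.07 (adjusted p = 0.461) for the FOXF1 plasmid and -0.09 ± 0.07 (adjusted p = 0.41) for the empty vector against untreated cells.

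HIF1AN, the asparaginyl hydroxylase, had 103, 101 and 98.1 CPM with the FOXF1 plasmid, 108, 104 and 96.7 CPM with the empty vector, and 101, 96.7 and 100.4 CPM in untreated libraries. These groups overlapped too, and its values against untreated cells were 0.02 ± 0.06 (adjusted p = 0.915) with the FOXF1 plasmid and 0.05 ± 0.06 (adjusted p = 0.671) with the empty vector. With total counts alone HIF1AN was called higher with the empty vector (0.29, adjusted p = 0.00113). RPKM, which is CPM per kilobase of exon, allows levels of different genes to be compared. In untreated cells EPAS1 stood at 40.2 ± 0.791 RPKM, above HIF1A at 13.4 ± 1.24 RPKM and ARNT at 11 ± 0.866 RPKM. HIF1AN was at 7.12 ± 0.168 RPKM and VHL at 7.97 ± 0.193 RPKM.

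Among the oxygen-sensing hydroxylases EGLN1 and EGLN3 rose, and EGLN2 was not called unless libraries were scaled by total counts alone. EGLN1 (PHD2), the main prolyl hydroxylase of most cells, was at 20.3, 19.7 and 18.2 CPM with the FOXF1 plasmid, 20.7, 22.7 and 26.8 CPM with the empty vector, and 9.15, 13 and 11.9 CPM in untreated libraries. All 6 transfected libraries were above all 3 untreated ones, and every plasmid library lay below every empty vector one. The rise was 0.77 ± 0.12 with the FOXF1 plasmid (adjusted p = 4.79e-05) and 1.05 ± 0.12 with the empty vector (adjusted p = 1.68e-07). EGLN3 (PHD3) had 8.62, 8.45 and 7.25 CPM with the FOXF1 plasmid, 8.12, 7.01 and 7.35 CPM with the empty vector, and 3.5, 4.82 and 4.4 CPM in untreated libraries. Again no transfected library overlapped an untreated one, and the rise was 0.93 ± 0.16 with the FOXF1 plasmid (adjusted p = 0.000151) and 0.82 ± 0.16 with the empty vector (adjusted p = 0.000275).

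EGLN2 (PHD1), the third prolyl hydroxylase, had 10.2, 11.4 and 9.39 CPM with the FOXF1 plasmid, 10.1, 12.6 and 10.4 CPM with the empty vector, and 10.6, 10.1 and 9.87 CPM in untreated libraries. Its groups overlapped, and its values against untreated cells were 0.02 ± 0.13 (adjusted p = 0.961) with the FOXF1 plasmid and 0.12 ± 0.13 (adjusted p = 0.572) with the empty vector. With total counts alone the empty vector value was 0.37, adjusted p = 0.0345, a call as higher. Whether its response differs from that of EGLN1 or EGLN3 was not tested. Per length in untreated cells, EGLN1 was at 1.56 ± 0.271 RPKM, EGLN2 at 1.55 ± 0.058 RPKM and EGLN3 at 0.576 ± 0.092 RPKM. On these exon lengths the levels of EGLN1 and EGLN2 did not differ beyond their spread. EGLN2 shares 30.6% of its exonic bases with RAB4B-EGLN2 on the same strand, which had 0 reads in all libraries against 3636 for EGLN2. Whether reads of the shared bases were left out of the EGLN2 count is not known. The ranking also depends on the length used, as the longest transcripts have 7097 bases for EGLN1 and 3894 bases for EGLN2.

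VHL, the part of the ubiquitin ligase that binds the alpha subunit, was at 41.6, 36.5 and 38 CPM with the FOXF1 plasmid, 40.2, 43.4 and 54.2 CPM with the empty vector, and 34, 32.6 and 34.1 CPM in untreated libraries. Empty vector replicate 3 stood above all other libraries, and neither transfected group overlapped the untreated one. For the FOXF1 plasmid the value was 0.21 ± 0.09 (adjusted p = 0.167). VHL rose by 0.45 ± 0.09 (adjusted p = 0.000447) with the empty vector, or 0.32 without that library.

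**Figure D1:**
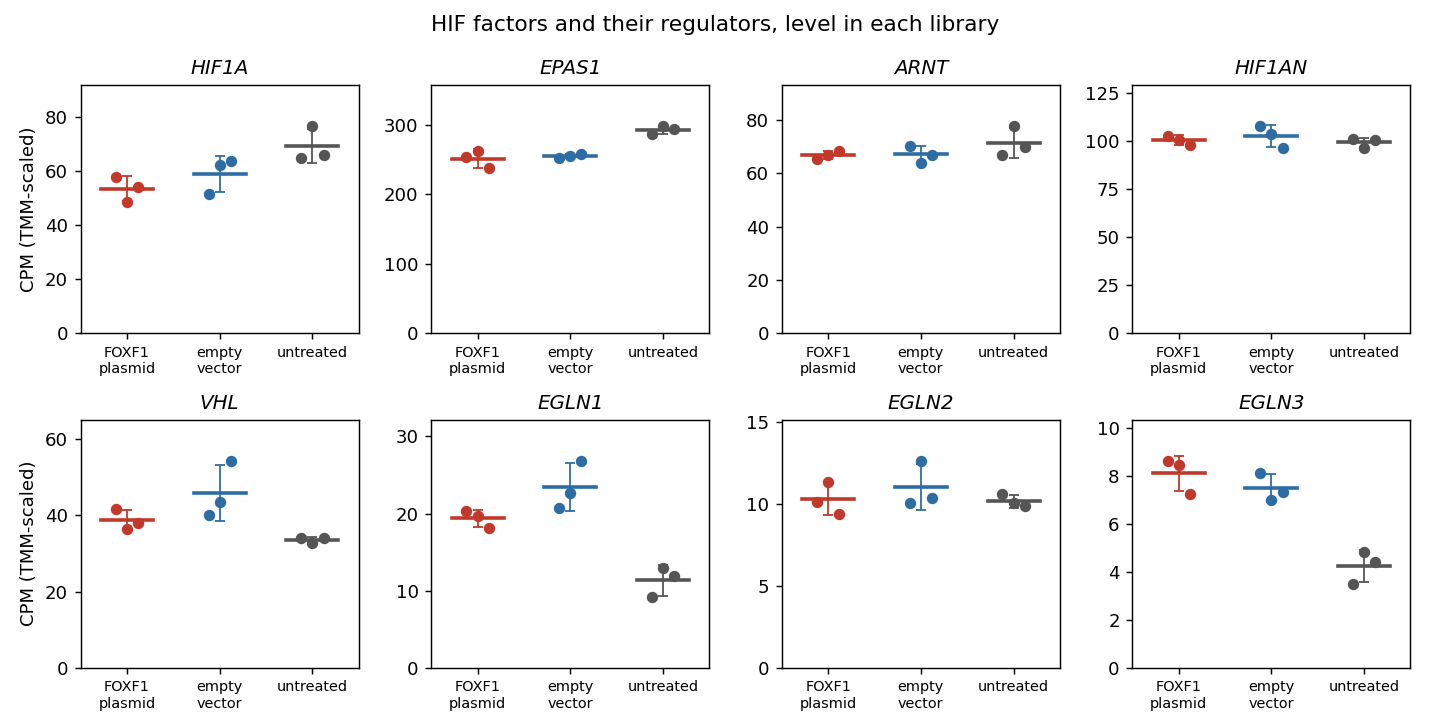
Level of the 8 HIF factors and regulators in each library, in CPM on TMM-scaled library sizes; points are libraries, with the mean and SD of each group (n = 3). EPAS1 lies lower and EGLN1 and EGLN3 lie higher in transfected than in untreated libraries, while HIF1AN and EGLN2 overlap.

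Genes of pH control and secreted vascular factors rose in both transfected groups. CA9, the membrane carbonic anhydrase used as a marker of HIF activity, was at 161, 164 and 155 CPM with the FOXF1 plasmid, 167, 157 and 156 CPM with the empty vector, and 108, 105 and 105 CPM in untreated libraries. The transfected libraries were well apart from the untreated ones, with a rise of 0.59 ± 0.06 with the FOXF1 plasmid (adjusted p = 1.23e-07) and 0.59 ± 0.06 with the empty vector (adjusted p = 3.67e-08). In untreated cells CA9 already stood at 63.6 ± 1.04 RPKM, the third highest of the 36 genes. CA12, a related carbonic anhydrase, had 12.1, 13.7 and 9.57 CPM with the FOXF1 plasmid, 13.6, 12 and 13 CPM with the empty vector, and 7.39, 8.27 and 8.82 CPM in untreated libraries. Its groups did not overlap the untreated one, and it rose by 0.53 ± 0.13 with the FOXF1 plasmid (adjusted p = 0.00972) and 0.65 ± 0.13 with the empty vector (adjusted p = 0.000582), the call with the plasmid being lost without FOXF1 plasmid replicate 2 (0.40) or untreated replicate 1 (0.45).

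VEGFA, the growth factor of blood vessels, was at 108, 105 and 95.6 CPM with the FOXF1 plasmid, 109.7, 111 and 109.7 CPM with the empty vector, and 61.3, 61.6 and 67 CPM in untreated libraries. The empty vector libraries lay close together, all above the plasmid libraries, which all lay above the untreated ones. The rise was 0.70 ± 0.07 with the FOXF1 plasmid (adjusted p = 2.35e-08) and 0.80 ± 0.07 with the empty vector (adjusted p = 6.42e-10). ADM, the precursor of the vasodilator peptide adrenomedullin, had 14.5, 15.5 and 10.6 CPM with the FOXF1 plasmid, 16.1, 13.3 and 13.5 CPM with the empty vector, and 7.08, 5.98 and 5.42 CPM in untreated libraries. All transfected libraries lay above the untreated ones, and ADM rose by 1.14 ± 0.14 with the FOXF1 plasmid (adjusted p = 2.55e-06) and 1.21 ± 0.14 with the empty vector (adjusted p = 3.36e-07).

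The largest change among the 36 genes was that of NDRG1, a cytoplasmic protein induced by stress and hypoxia. Its level was 395, 405 and 362 CPM with the FOXF1 plasmid, 440.0, 433 and 408 CPM with the empty vector, and 125, 119 and 115 CPM in untreated libraries. The transfected libraries stood far above the untreated ones, with the plasmid libraries below the empty vector libraries. The rise was 1.69 ± 0.07 with the FOXF1 plasmid (adjusted p = 3.64e-17) and 1.83 ± 0.07 with the empty vector (adjusted p = 4.29e-18), the smallest p of all 16366 genes in each comparison. With the empty vector this was 3.56-fold (95% interval 3.24-fold to 3.91-fold). ZNF395, a zinc finger protein, was at 128, 133 and 128 CPM with the FOXF1 plasmid, 133, 133 and 137 CPM with the empty vector, and 64.4, 60.3 and 66.6 CPM in untreated libraries. It varied little within groups and rose by 1.03 ± 0.06 with the FOXF1 plasmid (adjusted p = 3.04e-12) and 1.08 ± 0.06 with the empty vector (adjusted p = 6.54e-13). ZNF395 shares 34.9% of its exonic bases with FBXO16 on the same strand, which had 580 reads in all libraries against 38355 for ZNF395.

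Of 4 genes of collagen maturation, P4HA1, P4HA2 and PLOD1 rose in both transfected groups, and PLOD2 was called with the empty vector alone. P4HA1, a catalytic subunit of collagen prolyl hydroxylase, had 29.6, 25.2 and 31.1 CPM with the FOXF1 plasmid, 29.7, 37.5 and 35.9 CPM with the empty vector, and 14.8, 16.9 and 17.7 CPM in untreated libraries. Its transfected libraries lay above all untreated ones, and it rose by 0.80 ± 0.10 with the FOXF1 plasmid (adjusted p = 2.6e-06) and 1.07 ± 0.10 with the empty vector (adjusted p = 7.13e-09). The alternative catalytic subunit P4HA2 had 203, 219 and 213 CPM with the FOXF1 plasmid, 219, 205 and 210.3 CPM with the empty vector, and 153, 148 and 152 CPM in untreated libraries. These groups were also apart from untreated cells, and P4HA2 rose by 0.49 ± 0.06 with the FOXF1 plasmid (adjusted p = 2.43e-06) and 0.49 ± 0.06 with the empty vector (adjusted p = 1.07e-06). Per length in untreated cells P4HA2 stood at 17.7 ± 0.331 RPKM, above P4HA1 at 5.31 ± 0.486 RPKM.

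PLOD1, a lysyl hydroxylase of collagen, was at 764, 827 and 761 CPM with the FOXF1 plasmid, 801, 767 and 734 CPM with the empty vector, and 627, 576 and 712 CPM in untreated libraries. The highest untreated library lay just below the lowest empty vector one. PLOD1 rose by 0.30 ± 0.07 with the FOXF1 plasmid (adjusted p = 0.00789) and 0.26 ± 0.07 with the empty vector (adjusted p = 0.00887), calls lost without FOXF1 plasmid replicate 2 (0.24) or untreated replicate 2 (0.22) for the plasmid and without untreated replicate 2 (0.19) for the empty vector. PLOD2, the related enzyme that directs collagen crosslinks, had 66.8, 59.2 and 56.6 CPM with the FOXF1 plasmid, 56.3, 70.1 and 84.2 CPM with the empty vector, and 58.3, 62.3 and 54.6 CPM in untreated libraries. Its groups overlapped, with empty vector replicate 3 the highest. For the FOXF1 plasmid the value was 0.06 ± 0.10 (adjusted p = 0.785). For the empty vector it was 0.27 ± 0.10 (adjusted p = 0.0488), a call lost under 11 of 19 alternatives, among them leaving out FOXF1 plasmid replicate 2 (0.26), FOXF1 plasmid replicate 3 (0.27), empty vector replicate 2 (0.27), empty vector replicate 3 (0.11), untreated replicate 1 (0.25) or untreated replicate 3 (0.21) and GC and length offsets (0.04). Without empty vector replicate 1 the value was 0.40.

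Mitochondrial targets were mixed. BNIP3, a receptor that marks mitochondria for autophagy, was at 140.4, 144 and 163 CPM with the FOXF1 plasmid, 149, 159 and 171 CPM with the empty vector, and 83.1, 88.9 and 99.5 CPM in untreated libraries. Its transfected libraries lay above all untreated ones, and it rose by 0.72 ± 0.07 with the FOXF1 plasmid (adjusted p = 1.08e-07) and 0.82 ± 0.07 with the empty vector (adjusted p = 3.76e-09). The related receptor BNIP3L had 35.5, 29.7 and 31.5 CPM with the FOXF1 plasmid, 29, 32.7 and 39 CPM with the empty vector, and 30.2, 31 and 25.5 CPM in untreated libraries. These groups overlapped, with values of 0.16 ± 0.10 (adjusted p = 0.375) for the FOXF1 plasmid and 0.22 ± 0.10 (adjusted p = 0.127) for the empty vector. PDK1, a kinase that restrains pyruvate entry into the citric acid cycle, had 8.0, 5.89 and 6.13 CPM with the FOXF1 plasmid, 6.79, 8.4 and 8.44 CPM with the empty vector, and 2.93, 3.75 and 4.0 CPM in untreated libraries. It was higher in every transfected library and rose by 0.91 ± 0.17 with the FOXF1 plasmid (adjusted p = 0.000662) and 1.15 ± 0.17 with the empty vector (adjusted p = 1.24e-05).

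FAM162A, a mitochondrial protein described in hypoxic cell death, was at 54.7, 53.6 and 59.4 CPM with the FOXF1 plasmid, 59.9, 50.5 and 58.4 CPM with the empty vector, and 63, 68.1 and 55.3 CPM in untreated libraries. Its groups overlapped, and the values were -0.15 ± 0.08 (adjusted p = 0.266) with the FOXF1 plasmid and -0.14 ± 0.08 (adjusted p = 0.221) with the empty vector. With GC and length offsets the empty vector value was -0.31, adjusted p = 0.0098.

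PFKFB4 and PFKFB3 make and degrade the sugar phosphate that sets the pace of glycolysis. PFKFB4 was at 101, 101 and 89.9 CPM with the FOXF1 plasmid, 104, 96.8 and 90.1 CPM with the empty vector, and 57.5, 52.3 and 49 CPM in untreated libraries. PFKFB3 had 42.2, 41.8 and 34.8 CPM with the FOXF1 plasmid, 40.2, 38.2 and 36.9 CPM with the empty vector, and 30.8, 29.5 and 28.6 CPM in untreated libraries. Neither gene overlapped between transfected and untreated libraries. PFKFB4 rose by 0.88 ± 0.07 with the FOXF1 plasmid (adjusted p = 2.35e-09) and 0.87 ± 0.07 with the empty vector (adjusted p = 8.66e-10). PFKFB3 rose by 0.42 ± 0.08 with the FOXF1 plasmid (adjusted p = 0.00108) and 0.37 ± 0.08 with the empty vector (adjusted p = 0.00133).

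DDIT4 (REDD1), an inhibitor of mTOR signalling, was the highest of the 36 genes per length, at 379.9 ± 23.8 RPKM in untreated cells. Its level was 1259.6, 1281 and 1157 CPM with the FOXF1 plasmid, 1251, 1284 and 1249 CPM with the empty vector, and 832, 734 and 779.6 CPM in untreated libraries. The transfected libraries were all above the untreated ones, and it rose by 0.66 ± 0.07 with the FOXF1 plasmid (adjusted p = 1.08e-07) and 0.69 ± 0.07 with the empty vector (adjusted p = 1.38e-08). INSIG2, which retains the sterol-sensing complex in the endoplasmic reticulum, had 5.52, 3.97 and 4.67 CPM with the FOXF1 plasmid, 4.69, 6.13 and 7.18 CPM with the empty vector, and 3.75, 2.84 and 2.92 CPM in untreated libraries. Neither transfected group overlapped the untreated one. The value was 0.58 ± 0.19 (adjusted p = 0.0596) for the FOXF1 plasmid, and INSIG2 rose by 0.92 ± 0.19 (adjusted p = 0.000712) with the empty vector. HILPDA, a protein of lipid droplets, had 14, 15.1 and 13.6 CPM with the FOXF1 plasmid, 16.2, 13.5 and 13.3 CPM with the empty vector, and 12.9, 10.3 and 10.1 CPM in untreated libraries. The transfected libraries lay just above the highest untreated one. The value was 0.35 ± 0.12 (adjusted p = 0.0655) for the FOXF1 plasmid. HILPDA rose by 0.36 ± 0.12 (adjusted p = 0.0312) with the empty vector, a call lost without empty vector replicate 1 (0.27), untreated replicate 2 (0.30) or untreated replicate 3 (0.29).

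**Figure D2:**
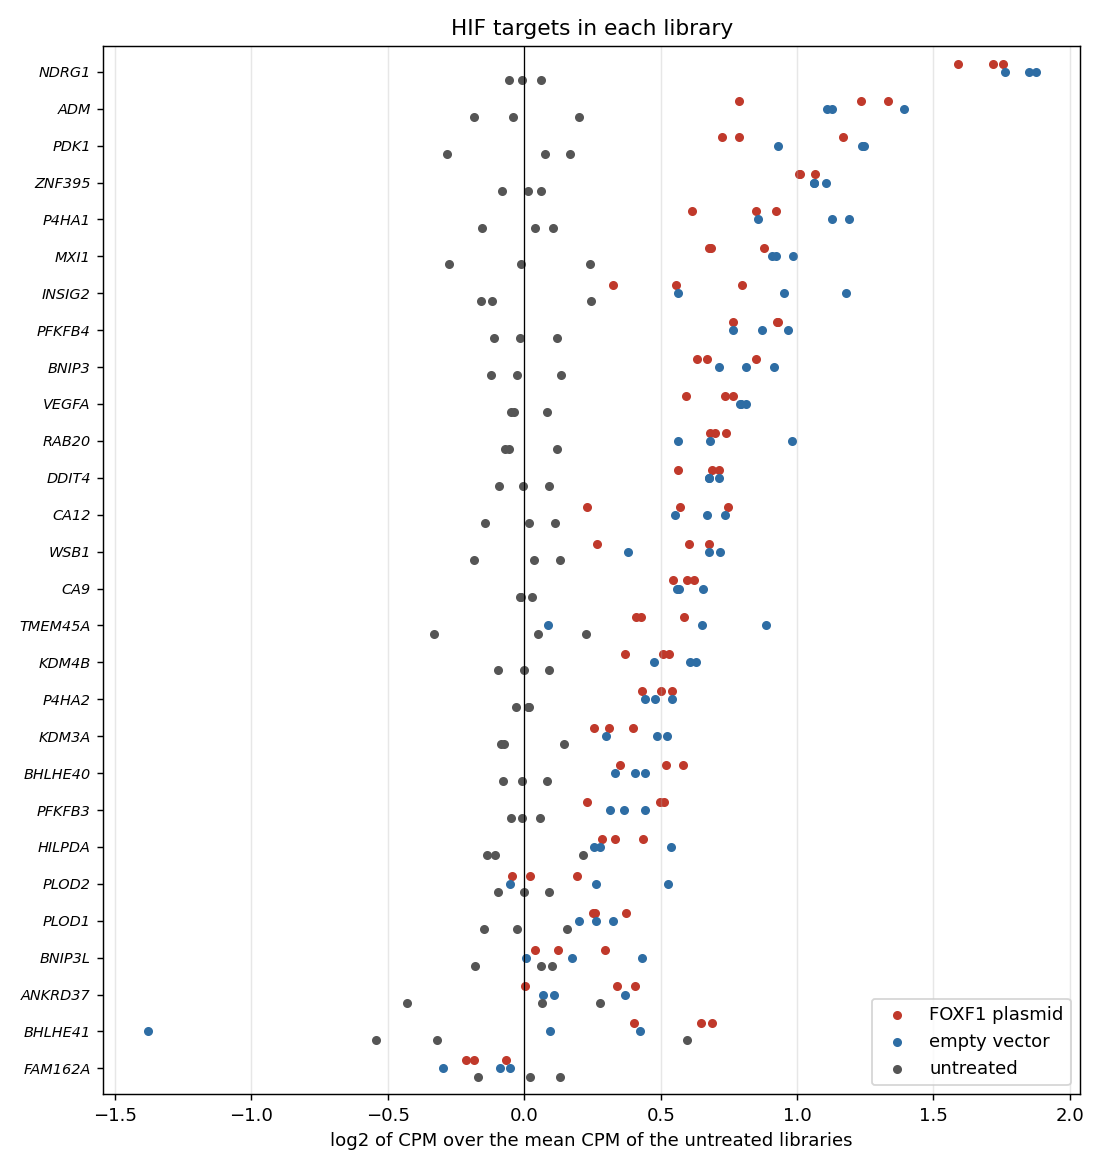
Each of the 28 HIF targets in each library, as the log2 of its CPM over the untreated mean; points are libraries of the FOXF1 plasmid, the empty vector and untreated cells. NDRG1 stands highest, FAM162A overlaps its untreated libraries, and BHLHE41, with 7 to 25 reads, scatters widely.

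Among transcriptional and chromatin regulators, MXI1, an antagonist of MYC, had 13.6, 15.7 and 13.7 CPM with the FOXF1 plasmid, 16, 16.2 and 16.9 CPM with the empty vector, and 7.05, 8.46 and 10.1 CPM in untreated libraries. Plasmid libraries lay between the other groups without overlap, and MXI1 rose by 0.75 ± 0.12 with the FOXF1 plasmid (adjusted p = 0.000138) and 0.94 ± 0.12 with the empty vector (adjusted p = 2.1e-06). BHLHE40, a repressor linked to the circadian clock, was at 79.1, 82.6 and 70.4 CPM with the FOXF1 plasmid, 75, 69.4 and 73.2 CPM with the empty vector, and 54.9, 58.4 and 52.3 CPM in untreated libraries. It was higher in every transfected library and rose by 0.49 ± 0.07 with the FOXF1 plasmid (adjusted p = 2.98e-05) and 0.39 ± 0.07 with the empty vector (adjusted p = 0.000174). The related BHLHE41 was near the limit of detection, with 22, 22 and 25 reads with the FOXF1 plasmid, 22, 7 and 19 with the empty vector, and 22, 12 and 10 in untreated libraries. A change of BHLHE41 was not detectable at this depth, with a 95% interval of 0.446-fold to 1.93-fold for the empty vector.

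The histone demethylase KDM4B had 66.7, 67.6 and 60.5 CPM with the FOXF1 plasmid, 72.4, 71.4 and 65 CPM with the empty vector, and 43.8, 46.8 and 49.8 CPM in untreated libraries. Its groups were apart from untreated cells, and it rose by 0.47 ± 0.07 with the FOXF1 plasmid (adjusted p = 5.81e-05) and 0.57 ± 0.07 with the empty vector (adjusted p = 1.39e-06). KDM3A, another histone demethylase, had 18.3, 17.2 and 16.5 CPM with the FOXF1 plasmid, 17.1, 19.9 and 19.4 CPM with the empty vector, and 13.2, 15.4 and 13.1 CPM in untreated libraries. No transfected library overlapped an untreated one. The value was 0.32 ± 0.10 (adjusted p = 0.0512) for the FOXF1 plasmid, and KDM3A rose by 0.44 ± 0.10 (adjusted p = 0.00271) with the empty vector.

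WSB1, an adaptor of a ubiquitin ligase, was at 33.4, 25.2 and 31.8 CPM with the FOXF1 plasmid, 27.2, 33.4 and 34.4 CPM with the empty vector, and 18.4, 21.5 and 22.9 CPM in untreated libraries. Its transfected libraries lay above the untreated ones, and it rose by 0.53 ± 0.11 with the FOXF1 plasmid (adjusted p = 0.00141) and 0.60 ± 0.11 with the empty vector (adjusted p = 0.000122). RAB20, a small GTPase of the endocytic pathway, had 10.1, 9.74 and 9.87 CPM with the FOXF1 plasmid, 12, 8.99 and 9.74 CPM with the empty vector, and 6.6, 5.79 and 5.84 CPM in untreated libraries. It too was higher in all transfected libraries and rose by 0.71 ± 0.14 with the FOXF1 plasmid (adjusted p = 0.000961) and 0.75 ± 0.14 with the empty vector (adjusted p = 0.000179). TMEM45A, a transmembrane protein, had 5.02, 4.5 and 4.45 CPM with the FOXF1 plasmid, 3.56, 5.27 and 6.18 CPM with the empty vector, and 3.47, 3.91 and 2.67 CPM in untreated libraries. Empty vector replicate 1 lay among the untreated libraries. For the FOXF1 plasmid the value was 0.48 ± 0.20 (adjusted p = 0.147). For the empty vector it was 0.58 ± 0.20 (adjusted p = 0.0373), a call lost under 7 of 19 alternatives, among them leaving out empty vector replicate 2 (0.54), empty vector replicate 3 (0.40), untreated replicate 1 (0.59) or untreated replicate 3 (0.43).

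ANKRD37, a small ankyrin repeat protein, had 11 to 24 reads per library, and its 95% interval with the empty vector was 0.592-fold to 2.19-fold, which spans both no change and a doubling at this depth. The use of strand in the counting is not stated, and reads of overlapping antisense genes may then not be told apart. This touches ANKRD37, with 35.2% of its exonic bases opposite UFSP2 (2183 reads in all libraries against 162 for ANKRD37). It also touches CA9, with 38.5% opposite ARHGEF39 (3892 reads against 49452), and DDIT4, with 41.2% opposite DDIT4-AS1 (10 reads against 380886).

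**Figure D3:**
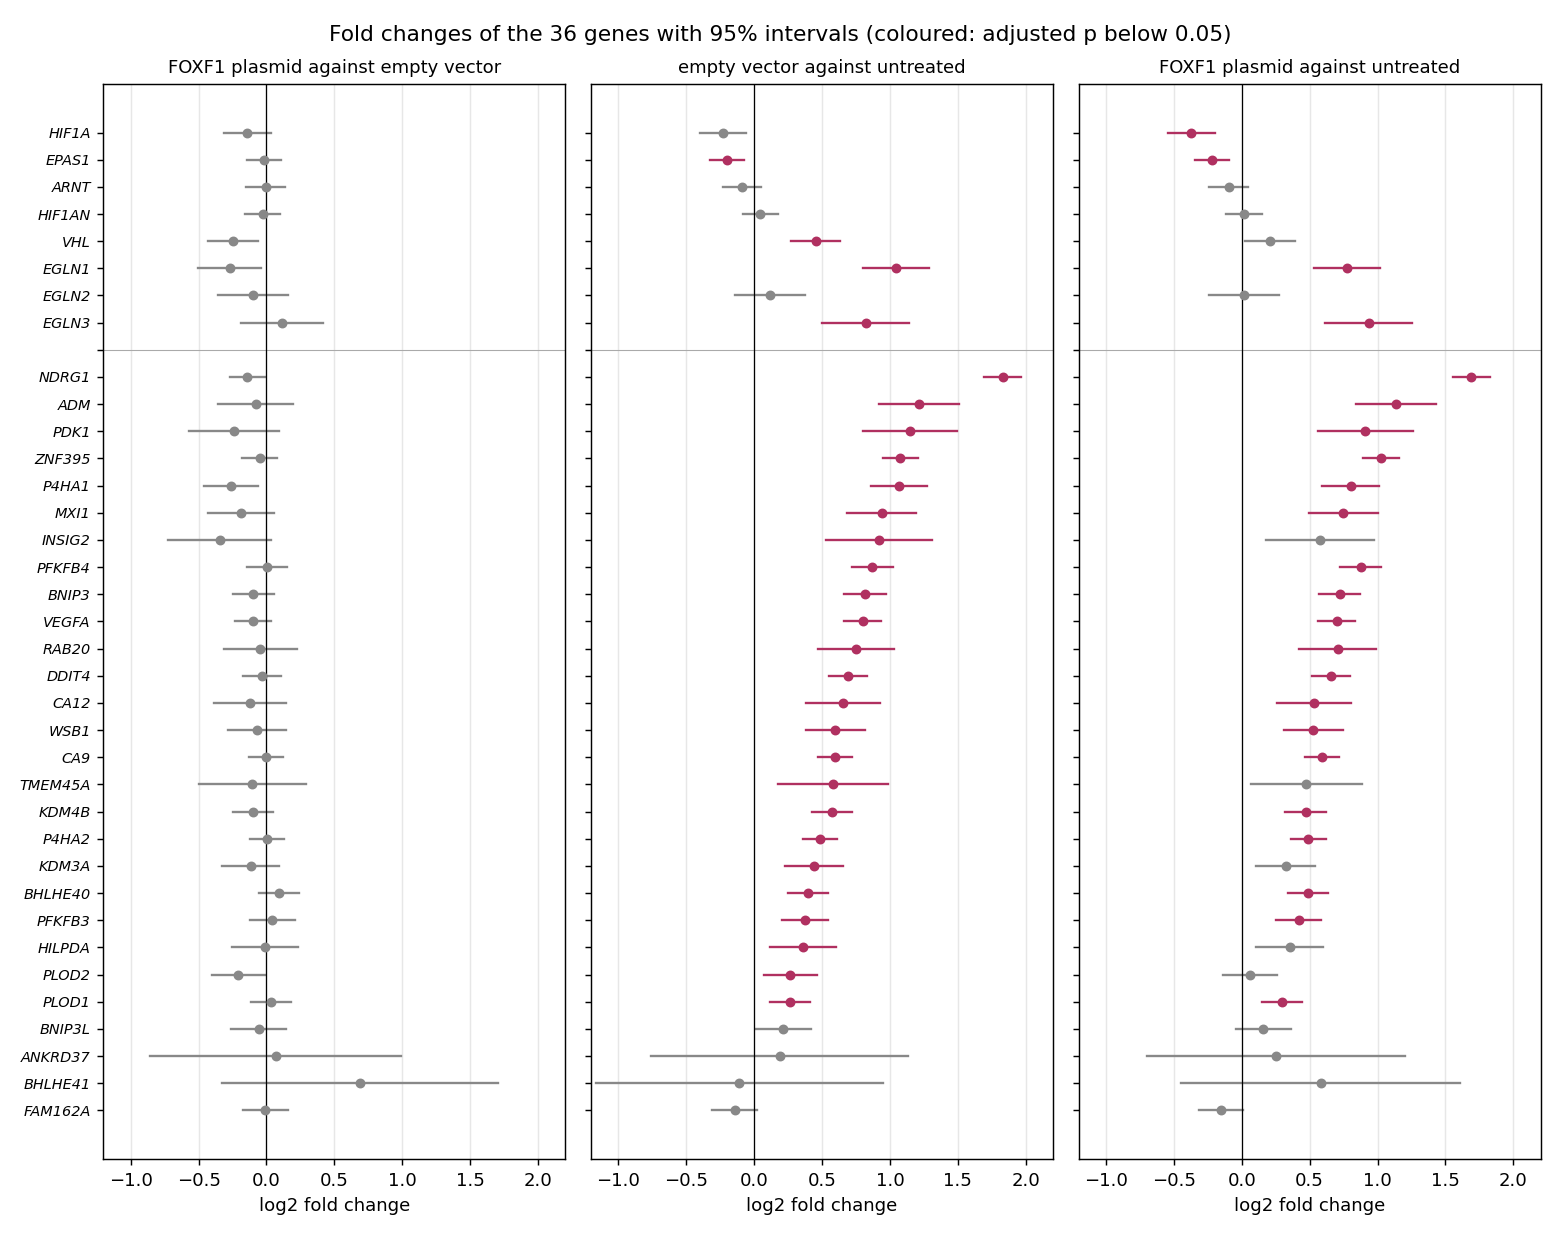
Log2 fold changes of the 36 genes in the 3 comparisons with 95% intervals; coloured genes had an adjusted p below 0.05. No gene is coloured between the FOXF1 plasmid and the empty vector, while most targets are in both comparisons with untreated cells, NDRG1 at 1.69 with the FOXF1 plasmid and 1.83 with the empty vector.

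Setting the FOXF1 plasmid against untreated cells joins transfection and FOXF1 in 1 comparison, and it shares its untreated libraries with the comparison above. Here 21 of the 36 genes rose (58.3%) and 2 fell, against 4.63% and 3.89% of all genes tested. Of the targets 19 rose and none fell, with a median of 0.55, against 0.02 for all genes tested. VHL, PLOD2, KDM3A, INSIG2, HILPDA and TMEM45A were called with the empty vector and not here, and HIF1A was called here and not with the empty vector. None of these 7 genes passed the direct test between the FOXF1 plasmid and the empty vector. Against untreated cells, KDM3A was called higher with the FOXF1 plasmid under 9 of 19 alternatives, and INSIG2 and HILPDA under 6 each. VHL and TMEM45A were called under 1 each and PLOD2 under 0. In 26 of the 36 genes every plasmid library lay above every untreated one, as in 14.1% of all genes tested.

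What FOXF1 added to transfection is addressed by the FOXF1 plasmid against the empty vector. None of the 36 genes was called by the edgeR quasi-likelihood test, against 0.055% of all genes tested called higher and 0% called lower. At an unadjusted p below 0.05, 0 of the 36 were higher, against 5.09% of all genes, and 5 were lower (13.9%), against 4.34%. These 5 were VHL at -0.25 ± 0.09 (adjusted p = 0.381), P4HA1 at -0.26 ± 0.10 (adjusted p = 0.391), EGLN1 at -0.27 ± 0.11 (adjusted p = 0.475), NDRG1 at -0.14 ± 0.06 (adjusted p = 0.502) and PLOD2 at -0.21 ± 0.10 (adjusted p = 0.514). DESeq2 gave 13 of the 36 an adjusted p and called 0 of them, beside 3.31% higher and 0.0735% lower of the 2722 genes to which it gave one, and limma-voom called 0 of the 36. Without empty vector replicate 1, VHL (-0.33, adjusted p = 0.0406), P4HA1 (-0.36, adjusted p = 0.0482) and PLOD2 (-0.34, adjusted p = 0.0271) were called lower, beside 1.03% of all genes tested in that fit. In that library all 3 genes had the lowest level of their group. Each of the 3 was called under only 1 of the 18 alternatives that gave it an adjusted p. Over these, values ran from -0.35 to -0.11 for VHL, -0.36 to -0.16 for P4HA1 and -0.34 to 0.03 for PLOD2.

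Signs leaned one way in this comparison, which shares its empty vector libraries with that of the empty vector against untreated cells. A deviation in those libraries moves a gene in opposite directions in both comparisons. Genes are also not independent replicates, and the lean was not tested. Of the 36 genes 28 had negative values and 8 positive ones, with a median of -0.06, beside 8736 negative and 7630 positive values and a median of -0.01 over all genes tested. In EGLN1, NDRG1, VEGFA and MXI1 every plasmid library lay below every empty vector one, 4 of 36 genes (11.1%), against 5.68% of all genes tested. VEGFA had -0.10 ± 0.07 (adjusted p = 0.673) and MXI1 -0.19 ± 0.12 (adjusted p = 0.653). For the 34 genes with a mean of at least 100 reads, every 95% interval lay between 0.606-fold, the lower bound of INSIG2, and 1.34-fold, the upper bound of EGLN3. CA9 was among the closest to no difference, with an interval of 0.914-fold to 1.09-fold.

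**Figure D4:**
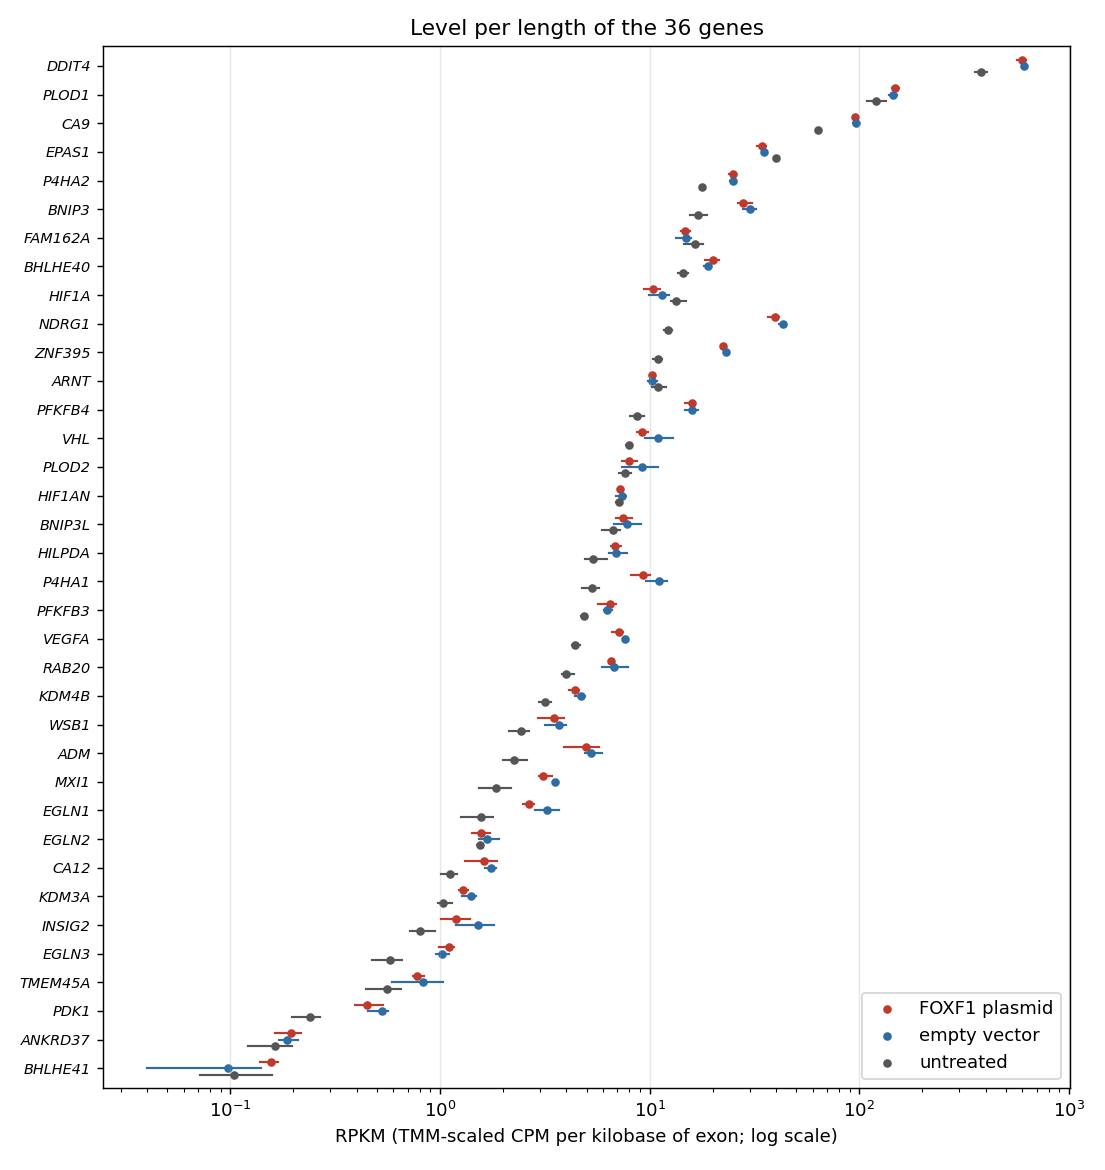
Level per length of the 36 genes in RPKM, from TMM-scaled CPM and GENCODE 29 exon lengths, on a log axis; points are group means and lines run from the lowest to the highest of 3 libraries. DDIT4, PLOD1 and CA9 head the order in untreated cells, NDRG1 is at 43.5 RPKM with the empty vector against 12.2 RPKM in untreated cells, and ANKRD37 and BHLHE41 are lowest.

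Other genes of the pathway were counted from further lists, which were chosen with earlier results of these data known. Of 21 tested genes of a second list of described HIF targets, 17 rose with the empty vector and none fell, with a median of 0.61. Of all genes tested 10.2% rose and 9.37% fell in this comparison. ANGPTL4, a secreted inhibitor of lipoprotein lipase, rose by 1.79 ± 0.18 (adjusted p = 1.38e-08) and IGFBP3, a carrier of insulin-like growth factors, by 1.52 ± 0.11 (adjusted p = 1.03e-10). With the FOXF1 plasmid against untreated cells, 14 of the 21 rose and none fell, with a median of 0.42, beside 4.63% of all genes higher and 3.89% lower. Of 17 glycolytic HIF targets, 7 rose and 2 fell with the empty vector, with a median of 0.17, beside 10.2% of all genes tested higher and 9.37% lower. With total counts alone 14 of the 17 rose and none fell, beside 35% of all genes higher and 2.07% lower. HK2, a hexokinase, rose by 0.84 ± 0.08 (adjusted p = 2.81e-09) and SLC2A1, a glucose transporter, by 0.68 ± 0.07 (adjusted p = 3.51e-08). With the FOXF1 plasmid against untreated cells 6 of the 17 rose and none fell, beside the same 4.63% and 3.89% of all genes.

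The 13 tested genes of another list are for other HIF factors, their partners and regulators, and VHL ligase parts. Of these, 3 rose and 5 fell with the empty vector, beside the same 10.2% and 9.37% of all genes. With total counts alone 7 of the 13 rose and 1 fell, beside 35% and 2.07%. GNB2L1 (RACK1), a ribosomal scaffold protein, fell by 0.51 (SE 0.08, adjusted p = 1.58e-05), and TCEB2 (elongin B), a partner of VHL, by 0.38 (SE 0.07, adjusted p = 0.000286). With total counts alone these values were -0.27 and -0.14, the TCEB2 value not called. With the FOXF1 plasmid against untreated cells 3 of the 13 rose and 1 fell, beside 4.63% and 3.89% of all genes. No gene of these 3 lists was called between the FOXF1 plasmid and the empty vector.

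Other measures moved with the HIF targets. Of 16 targets of the integrated stress response, 15 rose and none fell with the empty vector, with a median of 0.71. Of all genes tested 10.2% rose and 9.37% fell there. Against untreated cells the FOXF1 plasmid gave 13 rises and no fall among the 16, beside 4.63% of all genes higher and 3.89% lower. The cystine transporter gene SLC7A11 rose by 1.87 ± 0.41 (adjusted p = 0.0014) and CTH, an enzyme of cysteine synthesis, by 1.07 ± 0.22 (adjusted p = 0.000799) with the empty vector. The level of SLC7A11 was low, at 0.301 ± 0.0752 CPM in untreated and 1.11 ± 0.203 CPM in empty vector libraries. VEGFA and DDIT4 are known targets of the stress factor ATF4 as well as of HIF. The part of that response in the rise of the HIF targets was not tested. Without mitochondrial genes in the table, the 36 genes again gave 27 rises and 1 fall with the empty vector, and 21 rises and 2 falls with the FOXF1 plasmid against untreated cells.

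Summed squamous markers, mostly S100A2 and SFN, were 285 to 313 CPM with the FOXF1 plasmid, 253 to 298 CPM with the empty vector and 238 to 265 CPM in untreated libraries. Summed leukocyte markers, nearly all CD14, were 10.3 to 11.5 CPM with the FOXF1 plasmid, 9.84 to 11.2 CPM with the empty vector and 8.73 to 9.76 CPM in untreated libraries. Simple-epithelial markers, mostly KRT8, KRT18 and KRT7, summed to 3954 to 4209 CPM with the FOXF1 plasmid, 3446 to 3868 CPM with the empty vector and 4057 to 4687 CPM in untreated libraries. Mesenchymal markers, nearly all COL1A1, THY1 and VIM, summed to 3215 to 3579 CPM with the FOXF1 plasmid, 2948 to 3137 CPM with the empty vector and 2937 to 3165 CPM in untreated libraries. Their part in the results was not tested. In such bulk libraries fewer expressing cells and less RNA per cell cannot be told apart.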

How the data were processed

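RNA of 9 EPC2 libraries was sequenced with a stranded kit for mRNA, per the labels' protocols. The authors deposited raw read counts per gene, 1 column per library. The submitters' processing notes name bcl2fastq, STAR 2.5.2b, HTSeq and GRCh38; strand setting and annotation release are not given in sources used here.

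Counts were fitted in edgeR 4.0.16 (R 4.3.3) with a mean per group over all 9 libraries, filterByExpr (minimum count 10), TMM factors, the quasi-likelihood F test and Benjamini-Hochberg adjustment over 16366 genes (threshold 0.05). SE is the absolute log2 fold change over the square root of F. The scripts were checked on simulated data. Coordinates and exon lengths are those of GENCODE 29, which holds 56591 of the 64253 identifiers. Limits from counts cover counting error only. Per the labels the libraries are biological triplicates; separate cultures are not described further, so p-values cover only the spread among these libraries. All replicate pairs differed by more than sampling noise.

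All 36 genes are described; factors, regulators and genes called in any comparison have each library's value, and from other lists the 2 called genes with the largest absolute log2 fold change are named. The members and lists were chosen with earlier results of these data known. Alternatives were DESeq2 1.42.0, limma-voom (limma 3.58.1), RLE factors, total counts alone, other filters, only the compared groups, a replicate block, removal of mitochondrial genes, GC and length offsets, and leaving out each library.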

Additional observations from a re-analysis of the deposited data

How the results depend on the processing

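Over 969 repeats of called gene values under the alternatives, 34 calls were lost, and 1 of these values also changed sign, that of EPAS1 with the empty vector, at 0.0451 with total counts alone. Among gene values not called, 41 became calls and 74 changed sign. With the empty vector against untreated cells the 27 members called higher numbered 24 to 30 under all alternatives, beside 5.84% to 35% of all genes, the 30 and the 35% both with total counts alone, and with the FOXF1 plasmid against untreated cells the 21 called higher numbered 19 to 26, beside 2.63% to 14.2% of all genes, the 26 and the 14.2% likewise. The 1 member called lower with the empty vector became 2 with RLE factors, with no filter, with a filter of 1 CPM in 3 libraries, with DESeq2 and with the replicate block, 3 with GC and length offsets, 0 with total counts alone, and 0 to 2 with 1 library left out. The 2 called lower with the FOXF1 plasmid against untreated cells became 0 with total counts alone and numbered 1 to 2 with 1 library left out. Between the FOXF1 plasmid and the empty vector 0 to 3 members were called lower with 1 library left out. The cause of these differences was not tested. Deviations from group means had correlations of -0.153 to 0.143 between same-numbered libraries and of -0.128 to 0.208 between differently numbered ones. These ranges overlap, and deviations within a group cancel out, so they do not decide whether the numbers mark pairs. With the replicate block 27 members were higher and 2 lower with the empty vector. For the FOXF1 plasmid against untreated cells 23 were then higher and 2 lower, and between the FOXF1 plasmid and the empty vector 0 were called. Total counts alone put the all-gene median log2 fold change at 0.29, against 0.04 with TMM, for the empty vector, and at 0.16, against 0.02, for the FOXF1 plasmid, both against untreated cells. The share of all calls that were higher was then 94.4%, against 52.2% with TMM, and 92.8%, against 54.3%. On that scale the targets' medians were 0.84 and 0.70. Depth limits ANKRD37 and BHLHE41.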

Other observations

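Between the FOXF1 plasmid and the empty vector the values of the 36 genes varied with base composition. Over the 34 genes with a mean of at least 100 reads, Spearman's rho across genes between log2 fold change and transcript GC content was 0.495, and it was 0.387 over 16213 genes of the same libraries. With GC and length offsets it was -0.392 over the 34 genes. INSIG2, PLOD2 and HIF1A, with 35.5%, 34.4% and 36.4% GC, had -0.35 ± 0.18, -0.21 ± 0.10 and -0.14 ± 0.08, and PLOD1 and BHLHE40, with 58.6% and 52% GC, had 0.03 ± 0.07 and 0.09 ± 0.07. Other genes departed from this order. NDRG1 and KDM4B, with 52.1% and 61.2% GC, had -0.14 ± 0.06 and -0.10 ± 0.07, and FAM162A, with 40.2% GC, had -0.01 ± 0.08. For the empty vector against untreated cells the rho was 0.131 over the 34 genes and -0.27 over all. These are descriptions across genes, which are not independent replicates.

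BNIP3 had 6 HIF cores in its promoter window, the most of the 29 genes, counting CACGTG once on each strand, and rose by 0.82 ± 0.07 with the empty vector. PDK1 and MXI1 had none in theirs and rose by 1.15 ± 0.17 and 0.94 ± 0.12.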
